A study of Mus musculus with 9 samples.

Results

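The 9 genes described here, Tcf7, Lef1, Bcl11b, Tbx21, Eomes, Zeb2, Zbtb16, Gata3 and Foxp3, encode transcription factors that set or mark lymphocyte lineages. They were picked by name out of the 27998 gene rows of a table of unique molecular identifier (UMI) counts, in which each UMI stands for 1 captured RNA molecule of 1 liver cell. They were read in 4 classes of lymphocytes, T-like, NKT-like, NK-like and ILC1-like cells, which together held 2318 of the 8527 cells kept. The 9 libraries came from C57BL/6 mouse livers and were grouped by genotype and by time on doxycycline food. All mice carried ROSA26-rtTA-IRES-EGFP, a doxycycline-dependent transactivator, and all received doxycycline. The 2 WT libraries lacked the tetYAP transgene and had 7 days of doxycycline. The tetYAP libraries, in which doxycycline switches on a constitutively active form of the coactivator YAP, had 3 days (4 libraries, YAP3d) or 7 days (3 libraries, YAP7d). In this mouse model the transactivator depends on Cre recombinase under the albumin promoter, which directs the transgene to hepatocytes. There was no WT library at 3 days, and the labels gave neither age nor sex.

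Lymphocyte lineages are held apart by small sets of transcription factors. Tcf7 (encoding TCF1) and Lef1 are related high-mobility-group factors of naive and memory-forming T cells, and Bcl11b fixes T cell commitment in the thymus. Tbx21 (T-bet) and Eomes are T-box factors of cytotoxic and interferon-producing lymphocytes, and Zeb2 acts downstream of T-bet in the last steps of NK and CD8 effector maturation. Zbtb16 (PLZF) drives the innate-like programme of NKT cells, Gata3 acts in T cell development, in type 2 responses and in innate lymphocytes, and Foxp3 defines regulatory T cells. The mouse liver is rich in NKT cells and in resident ILC1, which are usually told from NK cells by the absence of Eomes.

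On the mouse assembly GRCm38.p6, the mm10 build to which the reads were aligned, all 9 genes are annotated as protein-coding. Tcf7 lies at chr11:52246527-52283383 and Tbx21 at chr11:97098007-97115331, both on the minus strand. Zeb2 (chr2:44983512-45117442), Gata3 (chr2:9857078-9887953) and Bcl11b (chr12:107910403-108004145) are also on the minus strand. Lef1 lies at chr3:131110297-131224357, Eomes at chr9:118478186-118486132, Zbtb16 at chr9:48651797-48836225 and Foxp3 at chrX:7579676-7595243. The promoters of Zeb2 and Tbx21 are printed because these genes passed the test between groups. Each line gives the 250 bases upstream of the outermost RefSeq start site from 5′ to 3′ on the strand of the gene, at chr2:45117443-45117692 for Zeb2 and chr11:97115332-97115581 for Tbx21, with capitals marking the E-box letters CAGGTG.
Zeb2: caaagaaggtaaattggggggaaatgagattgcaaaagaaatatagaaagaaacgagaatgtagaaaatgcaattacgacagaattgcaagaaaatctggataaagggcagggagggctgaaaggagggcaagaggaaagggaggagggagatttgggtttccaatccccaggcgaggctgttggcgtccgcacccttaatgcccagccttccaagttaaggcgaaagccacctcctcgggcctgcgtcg
Tbx21: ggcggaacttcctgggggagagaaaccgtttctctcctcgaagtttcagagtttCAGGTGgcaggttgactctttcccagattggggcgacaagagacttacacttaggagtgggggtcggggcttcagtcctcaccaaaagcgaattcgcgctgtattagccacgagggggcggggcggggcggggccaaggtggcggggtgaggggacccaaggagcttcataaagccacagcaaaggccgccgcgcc
The Zeb2 stretch had a GC content of 49.6% with 9 CpG, and the Tbx21 stretch 60.8% with 16 CpG, against medians of 52.4% and 6 over 32851 promoters. Both strands of this window were searched for a T-box motif (TCACACC), the E-box (CAGGTG), a TCF/LEF motif (CTTTGA) and a GATA motif (AGATAA), which 3.33%, 17.2%, 13.8% and 9.99% of all promoters hold. Of the 8 genes with a promoter entry, Tbx21 held the E-box starting 196 bases upstream, Lef1 the TCF/LEF letters at 2 places, Bcl11b the TCF/LEF letters once and Foxp3 the GATA letters once. All start sites in the table were searched, and the Lef1 and Foxp3 letters lay before start sites inside the gene, the most downstream of 4 for Lef1 and of 2 for Foxp3. The other 4, Tcf7, Eomes, Gata3 and Zeb2, held none of these letters in these windows, and Zbtb16 had no entry.

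The libraries held 293 to 2554 cells and 1314878 to 25056881 UMIs. The median UMIs per cell were 3190.5 to 5069.5 in the WT and YAP3d libraries and 5717 to 11471.5 in the YAP7d libraries. The lowest cell of a library held 822 to 1734 UMIs in the WT and YAP3d libraries and 2443 to 4041 in the YAP7d libraries, and 46 cell barcodes occurred in more than 1 library. Lymphocyte classes were named from markers that do not include the 9 genes. T-like cells (993) fell in a larger cluster of 693 cells led by Dapl1, Lef1, Tcf7, Cd8b1 and Il7r, and a smaller one of 300 cells led by Ikzf2, Tnfrsf4, Gzmk, Ccl5 and Ctla4. NKT-like cells (765) were led by Cxcr6 and Il4, NK-like cells (336) by the Ly49 receptor genes Klra4, Klra8 and Klra7 with Gzma, and ILC1-like cells (224) by Gzmc, Klra5, Cd7 and Xcl1. The data bore out the ILC1 label only in part. ILC1-like cells also held transcripts of Cd3g, a component of the T cell receptor complex, and with gates on marker UMIs 100 of the 224 fell in the NKT gate and 37 in the T gate, against 56 in the ILC1 gate. No T cell receptor gene was in the table, so NKT and γδ T cells could not be identified by their receptors. Counts were summed per library and class where the class had at least 10 cells, which left out NK-like cells of YAP3d replicate 3 (6 cells) and ILC1-like cells of YAP7d replicate 2 (3 cells). Levels are given in CPM, the UMIs of a gene per 1000000 UMIs of that class in that library. Pooled over libraries, Cd3g was at 1267 CPM in ILC1-like cells, against 820 in T-like, 1384 in NKT-like and 19.2 CPM in NK-like cells. Cd3d and Cd3e, at 304 and 202 CPM, lay between the T-like (857 and 399 CPM) and NK-like levels (19.6 and 2.40 CPM). The NK receptor gene Ncr1, at 699 CPM, was near the NK-like 717 CPM and far from the T-like 3.87 CPM. The name ILC1-like is therefore only a label.

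Each of the 9 genes had a class in which it was highest, and 8 of them were found mostly in lymphocytes. The 4 classes held 77.9% of all Zbtb16 UMIs and 90.3% to 96.3% of those of Tcf7, Lef1, Bcl11b, Tbx21, Eomes, Gata3 and Foxp3. Zeb2 was the exception, with 3.77% of its UMIs in the 4 classes and 4318 of 10797 in macrophage-like cells. The classes were made from these same cells, so differences between classes are a description without a test.

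Tcf7, Lef1 and Bcl11b marked T-like cells. Tcf7 ranged from 188 to 360 CPM in T-like cells over 9 libraries with a median of 263 CPM, while its medians in NKT-like, NK-like and ILC1-like cells were 38.0, 29.8 and 16.1 CPM. Lef1 ranged from 199 to 557 CPM in T-like cells with a median of 456 CPM, and its NKT-like level, between 62.7 and 128 CPM, came next. For both genes the lowest T-like library lay above the highest library of every other class. Bcl11b ranged from 127 to 365 CPM in T-like cells and from 104 to 282 CPM in NKT-like cells. The 2 ranges overlapped, with T-like cells higher in 7 of 9 libraries, so the order of these neighbours was not beyond their spread. Bcl11b was nearly missing from NK-like cells, with 6 UMIs in the 8 libraries and 4 libraries at 0, and had a median of 41.9 CPM in ILC1-like cells.

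Tbx21 was shared by 3 classes and low in T-like cells. It ranged from 84.0 to 307 CPM in NK-like, from 55.2 to 199 CPM in ILC1-like and from 67.2 to 133 CPM in NKT-like cells, and these ranges overlapped. NK-like cells were higher than NKT-like cells in 7 of 8 libraries and higher than ILC1-like cells in 5 of 7. In T-like cells Tbx21 ranged from 0 to 65.0 CPM, below the NKT-like level of the same library in 9 of 9. Eomes, its T-box relative, stood out in NK-like cells, at 85.2 to 297 CPM, with 2 UMIs in all NKT-like cells. In ILC1-like cells Eomes ranged from 0 to 41.5 CPM and was at 0 in 4 of 8 libraries. Eomes thus separated the NK-like from the ILC1-like class in 7 of 7 libraries without overlap, where Tbx21 did not.

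Among the 4 classes Zeb2 was highest in NK-like cells, at 38.7 to 470 CPM, against 0 to 15.8 CPM in NKT-like, 5.42 to 30.8 CPM in T-like and 0 to 35.6 CPM in ILC1-like cells. B-cell-like cells, which are lymphocytes too, held 36.9 to 133 CPM and overlapped with NK-like cells. Macrophage-like and monocyte-like cells of the same libraries held 267 and 320 CPM pooled. The part of free RNA in the Zeb2 levels was not tested. Zbtb16 was highest in NKT-like cells, at 18.9 to 82.8 CPM, above each of the other classes in every library where both were measured. Gata3 was the least selective of the 9 genes. Its NKT-like level of 63.0 to 131 CPM was above the T-like level of 24.4 to 111 CPM in 9 of 9 libraries, but NKT-like cells were above NK-like and ILC1-like cells in only 6 of 8 each. Foxp3 was nearly absent, with 38 UMIs in T-like cells and none in 765 NKT-like, 336 NK-like and 224 ILC1-like cells, which allows shares of up to 0.392%, 0.893% and 1.34% of cells with a UMI (3 counts, counting error only).

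**Figure D1:**
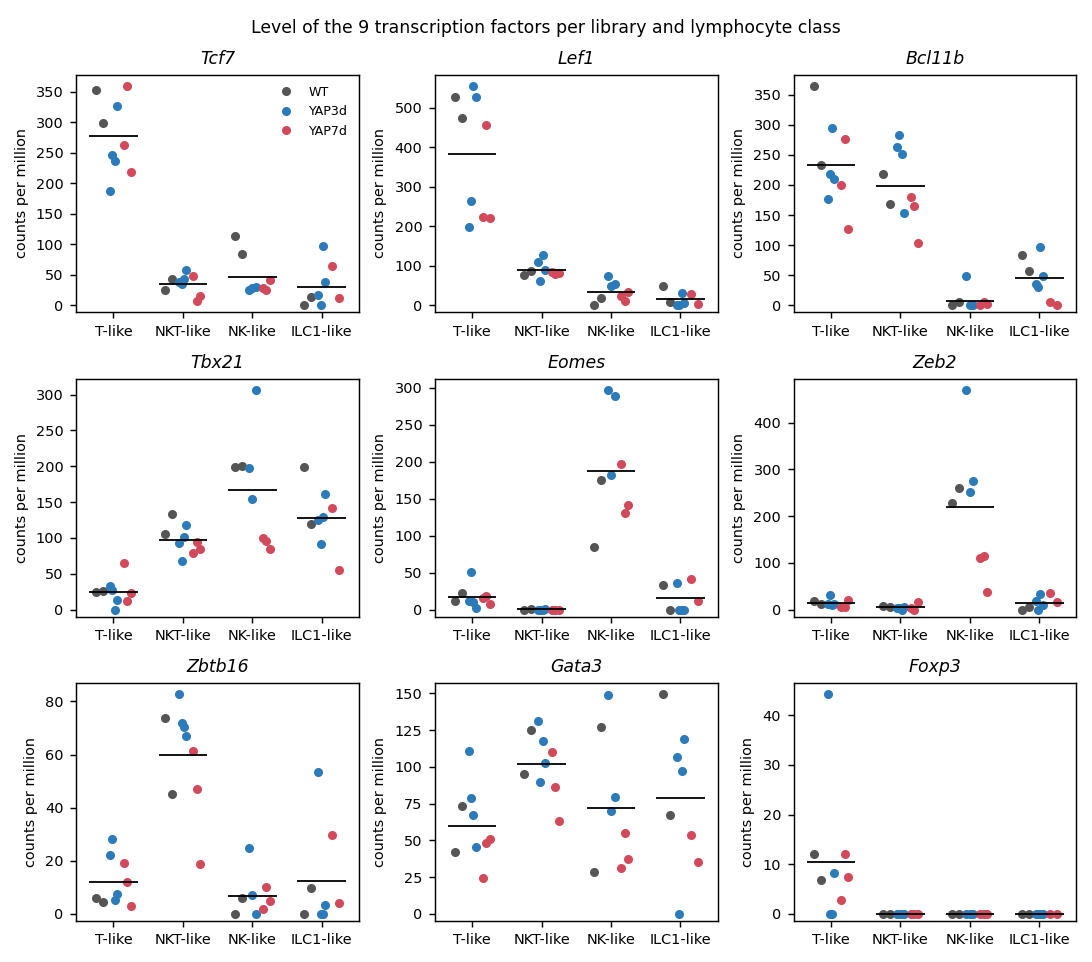
Level of each of the 9 transcription factors in CPM (vertical axis, linear and scaled per gene) by lymphocyte class (horizontal axis); each point is 1 library, coloured by group, and each black line is the mean over libraries. Tcf7 and Lef1 are highest in T-like cells, Eomes and Zeb2 in NK-like cells and Zbtb16 in NKT-like cells, while Gata3 is spread over all 4 classes.

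For all 9 genes the class with the highest level also had the highest share of cells with at least 1 UMI, a share that depends on depth. A Tcf7 UMI was found in 65.1% of T-like, 16.1% of NKT-like, 19.7% of NK-like and 12.7% of ILC1-like cells, against 1.80% of B-cell-like and 1.13% of endothelial-like cells. Whether the UMIs in B-cell-like and endothelial-like cells come from free RNA or from the cells themselves was not tested. Eomes UMIs were found in 63.3% of NK-like and 3.62% of ILC1-like cells, with 0.10% in endothelial-like cells. Bcl11b UMIs were found in 53.9% of NKT-like and 1.52% of NK-like cells, the latter close to the 0.86% of B-cell-like cells. Zeb2 UMIs were found in 43.9% of NK-like cells, but also in 18.0% of B-cell-like and 40.5% of endothelial-like cells. With every cell thinned to 1000 UMIs the shares fell to 27.0% of T-like cells for Tcf7, 32.9% for Lef1, 18.2% of NK-like cells for Eomes and 13.9% for Zeb2. The class with the highest share was the same with and without thinning for all 9 genes.

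Within single T-like cells, Tcf7 and Lef1 were detected together more often than apart. Of 646 T-like cells with a Tcf7 UMI, 80.3% also held a Lef1 UMI, against 53.9% of those without, at median depths of 4787 and 4503 UMIs. Both genes are high in 1 of the 2 T-like clusters, and in NKT-like cells the shares were 29.3% with and 33.0% without a Tcf7 UMI. In NK-like cells Tbx21 and Eomes showed no such pairing, with Eomes in 61.6% of cells with and 64.2% of cells without a Tbx21 UMI. Nor did Eomes and Zeb2 there, with Zeb2 in 43.1% of NK-like cells with an Eomes UMI and in 46.4% of those without. These pooled shares of cells are descriptions without a test.

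The 2 T-like clusters differed in nearly all of the 9 genes. In the larger cluster, Tcf7 was at 383 CPM pooled over libraries, Lef1 at 585 CPM and Bcl11b at 236 CPM, and all 3 were higher there than in the smaller cluster in 9 of 9 libraries. The smaller cluster held 116 CPM of Tcf7, 84.7 CPM of Lef1 and 147 CPM of Bcl11b. The effector and NKT-type factors ran the other way. Tbx21 was higher in the smaller cluster in 8 libraries and in the larger in none (54.8 against 2.84 CPM pooled), and Zbtb16 was higher in the smaller cluster in 9 of 9 (19.4 against 1.26 CPM). Gata3 (82.7 against 36.3 CPM), Eomes (25.9 against 4.42 CPM) and Zeb2 (25.9 against 7.89 CPM) were each higher in the smaller cluster in 7 of 9 libraries. The 9 genes were left out of the genes used for clustering. The clusters were still made from these same cells, so these levels are a description without a test. The smaller cluster made up 22.8% to 26.3% of T-like cells in WT, 16.7% to 57.7% in YAP3d and 28.2% to 46.6% in YAP7d libraries. The YAP3d range overlapped with both others, while the 3 YAP7d libraries lay above the 2 WT libraries, a description without a test.

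**Figure D2:**
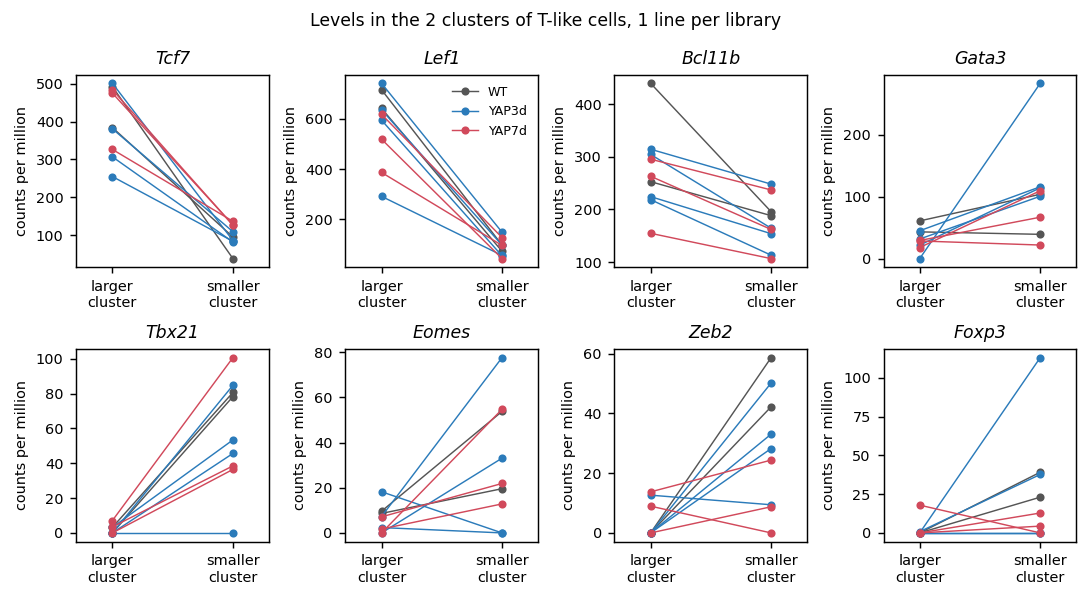
Levels in CPM (vertical axis, linear and scaled per gene) of 8 transcription factors in the larger and the smaller cluster of T-like cells; each line joins the 2 values of 1 library and is coloured by group. Tcf7, Lef1 and Bcl11b run downwards from the larger to the smaller cluster in all 9 libraries, and Tbx21 runs upwards in 8. YAP3d replicate 1 held 7 cells of the smaller cluster.

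Foxp3 was found in 18 cells of the whole table with 42 UMIs, of which 14 cells were T-like and 12 lay in the smaller T-like cluster. Transcripts known from regulatory T cells were more frequent in those 12 cells, although T-like cells with a Foxp3 UMI were also deeper, at a median of 7328 UMIs against 4672. Ikzf2 (Helios) and Capg were detected in 100% of them, against 34.4% and 41.3% of the 288 other cells of that cluster. Ctla4, an inhibitory receptor, was detected in 91.7% against 20.8%, Tnfrsf4 (OX40) in 91.7% against 8.33% and the IL-2 receptor chain Il2ra in 75.0% against 8.68%. The 12 cells are pooled from all groups and no comparison between groups was made for Foxp3, which passed the count filter in no class.

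The comparison of groups asks how lymphocytes of the liver differ when hepatocytes express active YAP for 3 or 7 days. After the filter on low counts, 18 gene-by-class pairs could be tested per comparison, 5 genes in T-like, 6 in NKT-like, 5 in NK-like and 2 in ILC1-like cells. Each was tested by edgeR's quasi-likelihood test with Benjamini-Hochberg adjustment over all genes of the class, called at an adjusted p below 0.05. Of the 54 tests, 2 were called, both in NK-like cells between YAP7d and YAP3d. Zeb2 and Tbx21 fell there, while Eomes, Gata3 and Tcf7 did not pass. The labels do not say whether the libraries of a group came from separate mice, so the p-values measure the spread between libraries, which may be technical in part.

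In NK-like cells Zeb2 stood at 227 and 260 CPM in the WT libraries, at 470, 253 and 276 CPM in the YAP3d libraries and at 110, 115 and 38.7 CPM in the YAP7d libraries. All 3 YAP7d libraries lay below all 5 others, and YAP7d replicate 3 was the lowest. The means were 244 ± 23.4 CPM (SD, n = 2), 333 ± 120 CPM (SD, n = 3) and 87.9 ± 42.7 CPM (SD, n = 3). From YAP3d to YAP7d Zeb2 fell by 1.83 on the log2 scale (SE 0.363, edgeR adjusted p = 0.0132). Against WT the estimate at 7 days was -1.55 (SE 0.424) with an adjusted p of 0.0650, short of the threshold, and at 3 days it was 0.28 with an adjusted p of 0.99999.

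Tbx21 in NK-like cells stood at 199 and 200 CPM in WT, at 198, 154 and 307 CPM in YAP3d and at 100.2, 95.2 and 84.0 CPM in YAP7d libraries. The YAP7d libraries again lay below all others, and they were close to each other. Tbx21 fell by 1.18 on the log2 scale from YAP3d to YAP7d (SE 0.2999, edgeR adjusted p = 0.0317). Against WT the estimate was -1.01 (SE 0.360), with an adjusted p of 0.135. In these 2 comparisons 6.03% and 2.61% of the 3101 genes tested in NK-like cells were called, which is the background for 2 of 5 and 0 of 5 of the transcription factors.

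Eomes, the other T-box factor of NK cells, stood at 85.2 and 176 CPM in WT, at 297, 182 and 288 CPM in YAP3d and at 197, 130 and 142 CPM in YAP7d libraries of NK-like cells. The WT and YAP7d values overlapped, with an estimate of 0.15 between them (SE 0.371, adjusted p = 0.889). Between YAP7d and YAP3d the estimate was -0.55 (adjusted p = 0.281). Gata3 was at 28.4 and 127 CPM in WT, 149, 70.2 and 79.7 CPM in YAP3d and 30.8, 55.1 and 37.1 CPM in YAP7d libraries. Its estimates at 7 days were -1.30 against WT (adjusted p = 0.164) and -1.04 against YAP3d (adjusted p = 0.167). Tcf7 differed from these in that the 2 WT libraries, at 114 and 84.7 CPM, lay above all 6 tetYAP libraries, at 24.8 to 42.0 CPM. In UMIs per cell Tcf7 was at 0.39 ± 0.02 in WT (SD, n = 2), 0.12 ± 0.03 in YAP3d and 0.29 ± 0.14 in YAP7d libraries (SD, n = 3 each), and on that scale YAP7d replicate 3, at 0.44, lay above both WT libraries. Its estimates were -1.69 at 3 days (unadjusted p = 0.0156, adjusted p = 0.99999) and -1.31 at 7 days (adjusted p = 0.174), neither of them called.

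For Tbx21 the NK-like difference was seen in CPM and not in UMIs per cell. NK-like cells held a median of 3534.5 to 4567 UMIs in the WT and YAP3d libraries and of 5508 to 8599 UMIs in the YAP7d libraries. Counted as UMIs per cell, Tbx21 was at 0.70 and 0.89 in WT, 0.73, 0.88 and 1.19 in YAP3d and 0.84, 0.68 and 0.89 in YAP7d libraries, which overlapped throughout. Zeb2 was at 0.80 and 1.16 UMIs per cell in WT, 1.73, 1.44 and 1.07 in YAP3d and 0.92, 0.82 and 0.41 in YAP7d libraries, so the YAP7d values lay below the YAP3d values on this scale too but overlapped with WT. Eomes, at 0.30 and 0.78 in WT, 1.09, 1.04 and 1.12 in YAP3d and 1.65, 0.93 and 1.5 in YAP7d libraries, was highest in 2 of the YAP7d libraries. Whether the extra UMIs per cell at 7 days come from deeper reading or from more RNA per cell cannot be told apart. With NK-like cells thinned to 1000 UMIs, a Zeb2 UMI was found in 45.5%, 16.0% and 26.2% of cells in YAP3d and in 11.3%, 25.0% and 4.35% in YAP7d libraries, and these overlapped.

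**Figure D3:**
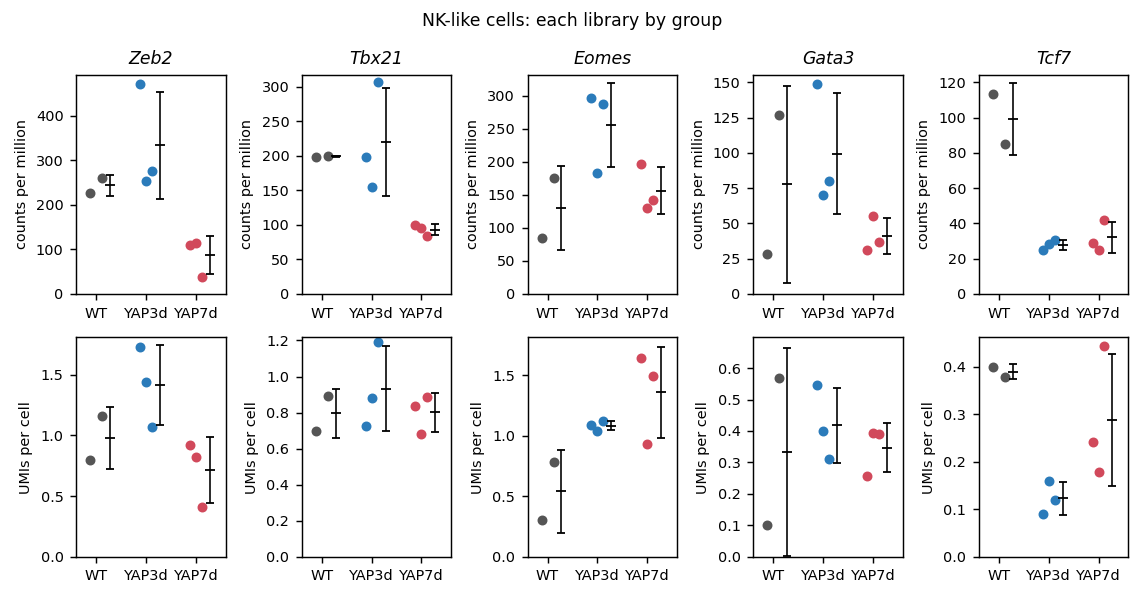
NK-like cells: level of Zeb2, Tbx21, Eomes, Gata3 and Tcf7 in CPM (upper row) and as UMIs per cell (lower row) by group; each point is 1 library and the bar beside the points gives the mean ± SD. Zeb2 and Tbx21 in YAP7d lie below every other library in CPM, while Tbx21 overlaps between groups in UMIs per cell.

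Cycling cells were more frequent in the same libraries. The share of NK-like cells with a UMI of the proliferation genes Mki67 or Top2a was 0% and 8.11% in WT, 2.38% to 20% in YAP3d and 35.7% to 45.2% in YAP7d libraries. Without these cells the Zeb2 estimate from YAP3d to YAP7d was -1.37 (edgeR adjusted p = 0.102) and that of Tbx21 was -1.02 (adjusted p = 0.117), and neither was called. Among NK-like cells without Mki67 or Top2a, pooled Zeb2 was 287 CPM in WT (44 cells), 337 CPM in YAP3d (76 cells) and 98.3 CPM in YAP7d (122 cells). Among the 83 YAP7d cells with such a UMI it was 39.3 CPM. Pooled Tbx21 in cells without such a UMI was 218, 251 and 111 CPM in the same order. These pooled values weight libraries by their cells, and YAP7d replicate 3 held 115 of the 205 YAP7d cells and the lowest Zeb2 level. The part of cycling cells in the result was not tested beyond the fit without them.

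Markers of other cells also moved with the groups in NK-like cells. The 13 genes induced by tissue dissociation summed to 9822 to 10110 CPM in WT, 6668 to 9187 CPM in YAP3d and 3127 to 4391 CPM in YAP7d libraries. Macrophage markers summed to 56.8 to 182 CPM, 35.1 to 184 CPM and 204 to 645 CPM in the same order, and macrophage-like cells, which hold Zeb2, were 3.18% to 11.5% of cells in WT and YAP3d libraries and 22.9% to 45.3% in YAP7d libraries. Endothelial markers summed to 170 to 496 CPM, 77.2 to 669 CPM and 65.5 to 95.5 CPM, and endothelial-like cells held 131 CPM of Zeb2 pooled. In NKT-like cells, where Zeb2 was at 0 to 15.8 CPM, endothelial markers summed to 30.7 to 674 CPM. The part of the dissociation, macrophage and endothelial genes in the result was not tested. Itgam (CD11b) and Klra8, markers of mature NK cells, were at 194 to 199 and 937 to 1083 CPM in WT, 123 to 161 and 1088 to 1208 CPM in YAP3d and 25.5 to 70.2 and 380 to 571 CPM in YAP7d libraries, without overlap between YAP7d and the other groups. In UMIs per cell Klra8 was at 4.07 ± 1.09 in WT (SD, n = 2), 5.05 ± 1.01 in YAP3d (SD, n = 3) and 3.96 ± 0.14 in YAP7d libraries (SD, n = 3), and the YAP7d values lay within the range of WT. Itgam was at 0.78 ± 0.12, 0.65 ± 0.24 and 0.37 ± 0.12 UMIs per cell, with YAP7d below WT and overlapping with YAP3d. Itgam and Klra8 were named after their values were seen, and both serve as markers of the class.

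The call on Zeb2 held in 6 of 8 fits that left out 1 library each and that on Tbx21 in 4 of 8, with the estimate below 0 in all of them. Zeb2 lost its call without YAP3d replicate 1 (adjusted p = 0.0588) or YAP3d replicate 4 (adjusted p = 0.0502), where only 12 of 2950 and 8 of 3008 genes were called. Tbx21 lost its call without either of these or without YAP7d replicate 1 or 2, with adjusted p-values up to 0.290. With NK-like cells set by marker gates in place of clusters, the estimates were -1.21 and -0.82 and neither gene was called (adjusted p = 0.255 for both). The gates also left 251 cells in 7 libraries, against 330 cells in 8, so class and libraries changed together. With only cells of at least 2000 UMIs neither gene was called (adjusted p = 0.0587 and 0.0787), but this also left 6 of the 8 NK-like libraries, without WT replicate 1 and YAP3d replicate 1, and with gates or with these cells no gene at all was called in this comparison by edgeR, with 362 and 699 genes at an unadjusted p below 0.05. With every cell thinned to 1000 UMIs, 66 of 624 genes were called, Zeb2 was not (adjusted p = 0.0933) and Tbx21 fell under the filter. With the replicate number as a block, Zeb2 was called and Tbx21 was not (-0.68, adjusted p = 0.445).

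In the other classes none of the 9 transcription factors was called. In NKT-like cells, Zbtb16 stood at 73.9 and 45.1 CPM in WT, 82.8, 71.7, 70.5 and 67.0 CPM in YAP3d and 61.5, 47.1 and 18.9 CPM in YAP7d libraries. The 3 YAP7d values lay below the 4 YAP3d values, with an estimate of -0.85 (SE 0.340, edgeR adjusted p = 0.225). NKT-like cells held a median of 4400.5 to 4971 UMIs in YAP3d and of 5604 to 7011.5 UMIs in YAP7d libraries. Levels of this class are given in CPM only and were not compared as UMIs per cell. Bcl11b in NKT-like cells was at 218 and 169 CPM in WT, 262, 282, 252 and 154 CPM in YAP3d and 180, 165 and 104 CPM in YAP7d libraries, with an estimate of -0.64 at 7 against 3 days (adjusted p = 0.184). Gata3, Tbx21, Lef1 and Tcf7 had estimates between -0.88 and -0.19 in that comparison and adjusted p-values of 0.382 to 0.799. In NKT-like cells 3.47% of 4697 genes were called between YAP7d and YAP3d and 1% between YAP7d and WT, so calls were few there in general.

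In T-like cells, Lef1 stood at 527 and 474 CPM in WT, 199, 263, 557 and 528 CPM in YAP3d and 225, 456 and 220 CPM in YAP7d libraries. Both tetYAP groups spanned high and low libraries, and the estimate at 7 days against WT was -0.78 (SE 0.430, edgeR adjusted p = 0.9998). Tcf7 in T-like cells was at 353 and 299 CPM in WT, 188, 247, 237 and 326 CPM in YAP3d and 263, 360 and 218 CPM in YAP7d libraries, with overlap between all groups. Bcl11b was at 365 and 234 CPM in WT and at 127 to 294 CPM in the 7 tetYAP libraries. The libraries with a low T-like Lef1 level, YAP3d replicates 1 and 2 and YAP7d replicates 1 and 3, were also those with the 4 largest shares of the smaller T-like cluster, at 38.9%, 57.7%, 45.0% and 46.6%. In T-like cells 0% of 5073 genes were called in each comparison by edgeR, with 59, 247 and 322 genes at an unadjusted p below 0.05 for YAP3d against WT, YAP7d against WT and YAP7d against YAP3d, and DESeq2 called 0, 12 and 11.

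In ILC1-like cells only Tbx21 and Gata3 passed the count filter. Tbx21 was at 199 and 120 CPM in WT, 124, 92.0, 130 and 161 CPM in YAP3d and 142 and 55.2 CPM in YAP7d libraries, which overlapped. Gata3 was at 150 and 67.2 CPM in WT, 107, 0, 97.2 and 119 CPM in YAP3d and 53.4 and 35.5 CPM in YAP7d libraries, with an estimate of -0.98 against WT (SE 0.695, edgeR adjusted p = 0.516). In UMIs per cell Gata3 was at 0.44 ± 0.18 in WT and 0.36 ± 0.04 in YAP7d libraries (SD, n = 2 each), which overlapped. Here 2.54% of 2404 genes were called between YAP7d and WT and 5.99% between YAP7d and YAP3d. Marker gates left 70 ILC1-like cells in 4 libraries, against 221 cells in 8, so the groups did not all keep replicates. Whether these calls hold with gates could therefore not be tested. Bcl11b fell under the filter, with 83.1 and 57.6 CPM in WT, 35.5, 30.7, 97.2 and 48.3 CPM in YAP3d and 5.93 and 0 CPM in YAP7d libraries. Without the filter it was called, by -4.17 against WT (adjusted p = 0.0169) and -3.71 against YAP3d (adjusted p = 0.0206), while DESeq2 gave no adjusted p. Its YAP7d level rests on 1 UMI, so these estimates are no measure of size. The CD3 genes summed to 1877 and 2226 CPM in WT, 1361 to 2622 CPM in YAP3d and 895 and 1245 CPM in YAP7d ILC1-like cells, and their part in the Bcl11b levels was not tested.

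**Figure D4:**
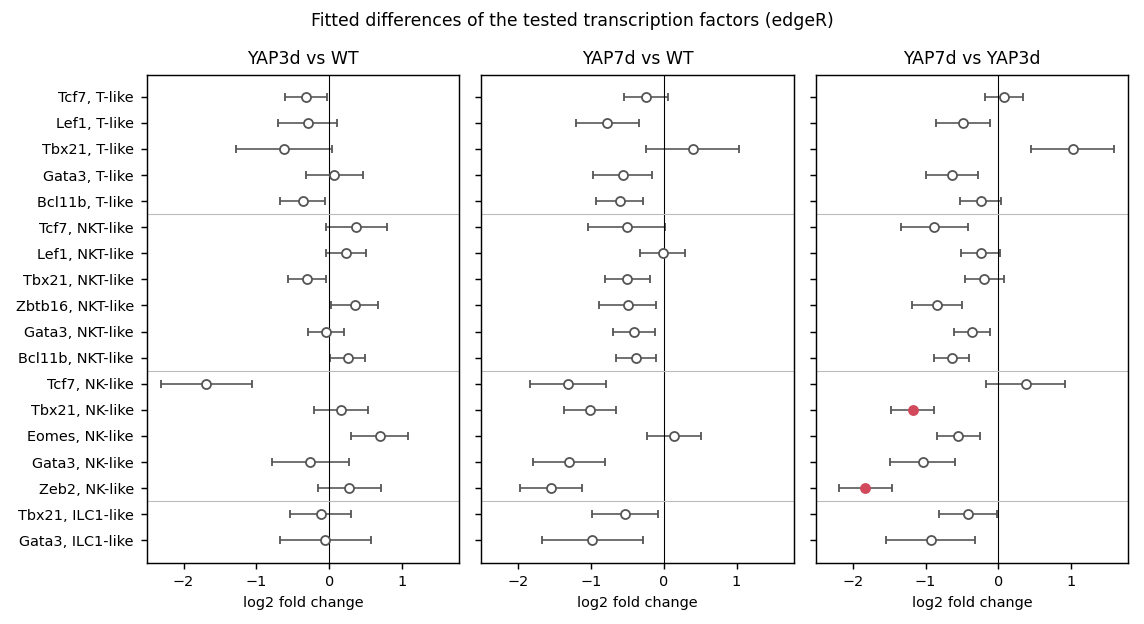
Fitted log2 fold change (horizontal axis) of each tested transcription factor and class (vertical axis) in the 3 comparisons; points are estimates, bars are ± 1 SE, and filled points have an edgeR adjusted p below 0.05. Filled points occur only for Zeb2 and Tbx21 in NK-like cells between YAP7d and YAP3d.

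Between YAP3d and WT none of the 18 tests was called, against 0% of genes called in every class. At an unadjusted p below 0.05 there was 1 of the 18 (Tcf7 in NK-like cells) and 56, 81, 69 and 59 of all genes in ILC1-like, NK-like, NKT-like and T-like cells, and DESeq2 called none. Between YAP7d and WT none of the 18 was called by edgeR, 4 had an unadjusted p below 0.05 (Zeb2, Tbx21, Tcf7 and Gata3, all in NK-like cells), and DESeq2 called 1 (Zeb2 in NK-like cells, -1.42, adjusted p = 0.0271). The estimates were below 0 in 16 of 18 tests for YAP7d against WT and in 15 of 18 for YAP7d against YAP3d, compared with 10 of 18 for YAP3d against WT. These comparisons share samples, and the genes of a class share libraries, so the counts are not independent. The median over all genes was between -0.0342 and 0.0315 in every class and comparison.

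A change in 1 class and not in another does not show that the classes differ, so the difference of the YAP7d minus WT change was tested between classes. Of 18 such tests none was called by edgeR or DESeq2, and 6 had an unadjusted p below 0.05. In 10 of the 18 the gene had passed the count filter in both classes, 2 of them with an unadjusted p below 0.05, and the Tbx21 difference between NK-like and T-like cells was -1.35 (SE 0.579, adjusted p = 0.447). Zeb2 had not passed the filter in T-like or ILC1-like cells and entered through NK-like cells, with 1 UMI in the WT ILC1-like cells, so no size is given for its differences. Of all genes, 0.0263% were called for ILC1-like minus NK-like, 0.0251% for NK-like minus T-like and 0% for NKT-like minus T-like cells, the last with 246 genes at an unadjusted p below 0.05 and none called by DESeq2. The same difference for YAP7d against YAP3d, the comparison in which Zeb2 and Tbx21 were called, was not tested.

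Other transcription factors and effector genes of NK-like cells were read from lists alongside. Of 44 other lymphoid transcription factors, 24 were tested between YAP7d and YAP3d and 4 fell, none rose, with a list median of -0.66 against -0.02 over all genes. Of all 3101 genes tested in that comparison, 122 rose and 65 fell (6.03% called). Klf2, which controls lymphocyte exit from tissue, went from 1600 to 2204 CPM in YAP3d to 483 to 727 CPM in YAP7d libraries (-1.36, adjusted p = 0.00422). Klf3 (-1.62), the glucocorticoid-induced Tsc22d3 (-1.41) and Ets1 (-1.14) were the other 3. Of 20 effector genes tied to T-bet, Eomes and Zeb2, 18 were tested, 3 fell and 1 rose, with a median of -0.55 against the same background of 6.03%. Those that fell were S1pr5 (-1.65), the receptor by which mature NK cells leave tissue, the maturation marker Klrg1 (-1.54) and Fasl (-1.12). In UMIs per cell S1pr5 was at 0.55 ± 0.17 in YAP3d and 0.37 ± 0.15 in YAP7d, Fasl at 1.37 ± 0.19 and 1.15 ± 0.32 and Ets1 at 2.06 ± 0.48 and 1.66 ± 0.30 (SD, n = 3 each), and the libraries of both groups overlapped for each of the 3 genes. Klf3 overlapped on that scale as well, while Klf2, Tsc22d3 and Klrg1 did not. Gzmb, encoding granzyme B, rose by 1.21 (adjusted p = 0.00617), from 867 to 1043 CPM in YAP3d to 1694 to 2430 CPM in YAP7d libraries. Ets1, Fasl and Gzmb were named after their values were seen.

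Against WT, 4 of the same 24 transcription factors were lower at 7 days in NK-like cells, namely Tsc22d3 (-1.55), Hopx (-1.51), Klf2 (-1.38) and the activation-induced Nr4a2 (-1.21), where 2.61% of all genes were called, 40 higher and 41 lower. These 81 calls fell to 5 without WT replicate 1, to 0 without WT replicate 2 (558 genes at an unadjusted p below 0.05 by edgeR), to 32 without YAP7d replicate 2, to 11 without cells with Mki67 or Top2a and to 2 with only cells of at least 2000 UMIs. These are settings in which the count fell, and the counts of the other settings are not given. In UMIs per cell, Hopx, Nr4a2 and Klf2 overlapped between WT and YAP7d, while Tsc22d3 did not. Of the 18 effector genes tested in that comparison 1 fell, S1pr5 (-2.27), and 1 rose, Gzmb (1.27). Of the genes tied to naive cells, Tcf7 and Lef1, 4 of 18 were tested in NK-like cells and Cd9 alone fell between YAP7d and YAP3d (-0.98), with overlap in UMIs per cell. In T-like cells none of the 33 other transcription factors, 15 naive-cell genes and 15 effector genes tested was called in any comparison, and the naive-cell list had a median of -0.36 at 7 days against WT.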

How the data were processed

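Non-hepatocyte cells of digested livers were captured in 9 libraries by droplet single-cell RNA sequencing. The authors processed the reads with Cell Ranger on mm10 and Seurat 2 and deposited 1 table of raw UMI counts for the cells they kept; all of its columns matched a labelled library (0 did not). Cells with at least 200 genes were kept (35 left out) and clustered in scanpy 1.11.5 on 2384 variable genes without cell-cycle genes (30 components, Leiden resolution 1), and clusters were named from marker lists. The 9 members and the genes of the other tested lists were not among these variable genes. Scrublet called 60 doublets (0.704%), 9 of them lymphocytes, which were kept and left out in an alternative. Counts were summed per library and class with at least 10 cells and tested in edgeR 4.0.16 (R 4.3.3; filterByExpr, TMM, quasi-likelihood, 3 groups in 1 fit), with DESeq2 1.42.0 as an alternative; the code was tested on simulated data. The library was the replicate, and the difference between classes was tested with the library as a block. The members and lists were chosen with earlier results of these data known. All 9 members were described; the 2 genes most correlated with each member were named by rule, except 1 gene that is not reported here. The rule also named up to 5 listed genes with the largest called change per class and comparison. It was applied to the lists other than proliferation and dissociation genes, which are given as counts or sums; over all lists it would mostly have named proliferation genes. Genes named beyond it are Ets1, Fasl, Gzmb and Cd9 (NK-like, YAP7d against YAP3d), Nr4a2 (NK-like, YAP7d against WT), Cd160 (NKT-like), Jun, Fos, Dnajb1, Itgam and Klra8. Intervals and limits from 3 counts cover counting error only. Sequences came from RefSeq tables on GRCm38.p6.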

Additional observations from a re-analysis of the deposited data

How the results depend on the processing

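Between YAP7d and YAP3d, 2 transcription factor tests were called. The count was 0 with classes from marker gates, with only cells of at least 2000 UMIs, with every cell thinned to 1000 UMIs and without cells with Mki67 or Top2a, where 0 of 2618, 0 of 3829, 66 of 624 and 16 of 2345 genes were called in NK-like cells. It ranged from 0 to 3 when 1 library was left out, with 0 without YAP3d replicate 1 or YAP3d replicate 4 and 1 without YAP7d replicate 1 or YAP7d replicate 2, and the genes called in NK-like cells went from 187 of 3101 to 12 of 2950 and 8 of 3008 without the former libraries. The Zeb2 estimate in NK-like cells stayed between -1.83 and -1.21 in the 11 settings other than leaving out a library and between -2.13 and -1.38 without 1 library each. Its adjusted p was 0.0587 for cells of at least 2000 UMIs and 0.0933 for thinned cells. The Tbx21 estimate lay between -1.25 and -0.68 in 10 such settings, and it was also not called without the filter on low counts (adjusted p = 0.135). Between YAP7d and WT the count was 0, 1 by DESeq2 (Zeb2 in NK-like cells) and 1 without the count filter (Bcl11b in ILC1-like cells), and it ranged from 0 to 1 when 1 library was left out, with 1 without YAP3d replicate 2 (Bcl11b in ILC1-like cells) and 1 without YAP7d replicate 1 (Zeb2 in NK-like cells). The cause of these changes was not tested. Marker gates and the floor of 2000 UMIs also left fewer NK-like libraries, 7 and 6 against 8. With the replicate number of the labels as a block, 1 test was called between YAP7d and YAP3d (Zeb2, -1.46, adjusted p = 0.0167), Tbx21 was not (-0.68, adjusted p = 0.445), and the counts of the other comparisons were 0. Same-numbered libraries did not all deviate together, with correlations of -0.0994 to 0.155 in NK-like, -0.129 to 0.248 in NKT-like and -0.0883 to 0.156 in T-like cells (2 of 6, 4 of 7 and 2 of 7 pairs over 0.1), so the numbers were not taken to pair the libraries. WT replicate 2, YAP3d replicate 4 and YAP7d replicate 3, those with the most cells of their groups, deviated in the same direction, with correlations of 0.28 to 0.460 in NKT-like, 0.254 to 0.371 in T-like and 0.0901 to 0.232 in NK-like cells. The 2 WT libraries deviate from their own mean by equal and opposite amounts. Correlations with WT replicate 1 and with WT replicate 2 are therefore not separate evidence in either set. The count between YAP3d and WT and the count of differences between classes were 0 in every setting run, and the class with the highest level was the same for all 9 genes. NK-like cells of 10 to 115 per library limit what could be detected, and the 2 WT libraries held 47 of them.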

Other observations

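The genes whose levels ran most like those of each transcription factor were found over 34 sums of a class in a library, among 5300 genes with a mean of at least 20 CPM, as a description without a test. The sums share libraries and classes. For Zeb2 they were Itgam (Pearson r = 0.843) and the Ly49 receptor gene Klra8 (0.836), and for Eomes Klra4 (0.769), another gene of that family. Itgam, Klra8 and Klra4 are among the markers that named the NK-like class, so these correlations in part repeat the differences between classes. For Lef1 they were S1pr1 (0.823), the receptor for exit to blood and lymph, and Pik3ip1 (0.818), and for Tcf7 Rab3ip (0.799) and Crlf3 (0.765). Bcl11b ran with Ms4a6b (0.868) and Ltb (0.860), Zbtb16 with Sptssa (0.744) and the surface glycoprotein gene Thy1 (0.738), and Gata3 with Nmt1 (0.843) and Mllt3 (0.83). Tbx21 ran with Sft2d1 (0.853) and Arl4d (0.833). For Foxp3, Il6ra (0.789) and Samhd1 (0.787) came first, on a level that was 0 in most sums.

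Outside NK-like cells, listed genes were called in the innate-like classes, with counts that depended on single libraries and on how the classes were set. In NKT-like cells 2 of 34 other lymphoid transcription factors tested were lower in YAP7d than in WT, Klf3 (-1.63, edgeR adjusted p = 0.0314) and Hopx (-1.12, adjusted p = 0.0355), where 1% of all 4697 genes were called, 31 higher and 16 lower. These 47 calls fell to 0 without WT replicate 1 or YAP7d replicate 2 (424 and 391 genes at an unadjusted p below 0.05 by edgeR), to 2 without WT replicate 2, both higher, to 20 without YAP3d replicate 3, to 1 with marker gates and to 5 without cells with Mki67 or Top2a, and rose to 77 without YAP3d replicate 4. Against YAP3d, 3 were lower, Klf3 (-1.62), Runx3 (-1.11), a factor of cytotoxic lymphocytes, and Hopx (-1.07), where 3.47% were called, 123 higher and 40 lower. These 163 calls fell to 58 without YAP7d replicate 2, to 93 without YAP3d replicate 1, to 99 without YAP3d replicate 3 and to 13 without cells with Mki67 or Top2a. Only settings with a fall are listed here, and the counts of the others are not given. The survival receptor gene Il7r was lower there as well (-1.49), as was the inhibitory receptor gene Cd160 (-0.95), and Ly6c2 was higher (1.28). Proliferation genes were higher in 11 of 19 tested against WT and in 17 of 19 against YAP3d. In ILC1-like cells 10 of 11 proliferation genes tested were higher in YAP7d than in YAP3d, and the effector genes Fasl (-1.66), Cxcr3 (-1.48) and Ccl4 (-1.20) were lower, where 5.99% of all 2404 genes were called, 112 higher and 32 lower. Cd160 (-0.93) and Cd244 (-1.07), from the exhaustion list, were lower too. These 144 calls fell to 45 without cells with Mki67 or Top2a and to 76 without YAP3d replicate 1. Marker gates left 70 ILC1-like cells in 4 libraries, against 221 cells in 8, and the groups did not all keep replicates. Whether the calls in ILC1-like cells hold with gates could therefore not be tested.

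Genes induced by dissociation and macrophage markers moved with these groups as well. The dissociation genes summed to 7376 to 12074 CPM in WT, 7542 to 10467 CPM in YAP3d and 4235 to 5585 CPM in YAP7d NKT-like cells, and to 8573 to 11623, 6487 to 9484 and 4281 to 4422 CPM in ILC1-like cells. In YAP7d against WT, 3 of 11 dissociation genes tested were called in ILC1-like cells, all lower, among them Jun (-1.87) and Dnajb1 (-2.51). Of all genes 2.54% were called there. In NK-like cells 6 of 10 were called, all lower, among them Jun (-2.26) and Fos (-1.97), where 2.61% of all genes were called. Macrophage markers summed to 42.2 to 238 CPM in WT, 55.2 to 152 CPM in YAP3d and 347 to 675 CPM in YAP7d NKT-like cells, and to 99.7 to 168, 32.4 to 249 and 267 to 571 CPM in ILC1-like cells. Their part in the changes above was not tested.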
